A study of Bos taurus with 12 samples.

Results

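The 10 genes described here encode surface proteins by which preadipocytes and stromal cells are recognised: PDGFRA, PDGFRB, THY1, ENG, NT5E, CD44, ALCAM, VCAM1, FAP and DPP4. They were taken by symbol from a table of 29240 genes, and all 10 had an entry. The cells were precursor adipocytes of cattle (Bos taurus), and polyadenylated RNA was sequenced in 12 libraries 48 h after transfection. The 4 groups held 3 libraries each. Cells of the si group received an interference reagent whose target the labels do not name, and si_NC cells received its negative control. Cells of the OE group received the plasmid pcDNA3.1-HGFAC and OE_NC cells pcDNA3.1-NC. pcDNA3.1 is a mammalian expression vector with a strong viral promoter, and HGFAC is a secreted serine protease that activates hepatocyte growth factor. All 4 groups were transfected, and untransfected cells were not analysed here. The breed, age and fat depot of the donor animals are not given in the labels. Nor do the labels say that replicates were separate cultures, so p-values measure the spread between these libraries, which may be technical.

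Preadipocytes are fibroblast-like progenitors in the stroma of fat tissue that can turn into fat cells. No single surface protein defines them. The PDGF receptors are used to trace and sort them, THY1, ENG and NT5E form the positive panel for cultured mesenchymal stromal cells, and CD44 and ALCAM are adhesion molecules shared with many fibroblasts. VCAM1, FAP and DPP4 mark particular stromal states, among them inflamed stroma, activated fibroblasts and, in mouse fat, early progenitors. In RNA from a whole culture, fewer cells of a type and less RNA per cell cannot be told apart.

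Gene counts per library summed to 35.9 to 42.7 M in si, 28.9 to 32.2 M in si_NC, 32.7 to 36.4 M in OE and 35.1 to 38.2 M in OE_NC (M, counts in units of 1e+06). HGFAC itself, the gene on the plasmid, stood at 190, 156 and 138 CPM (counts per M counts, on TMM-scaled library sizes) in OE, against 0.273, 0.379 and 0.526 CPM in OE_NC. In si it averaged 0.658 ± 0.165 CPM and in si_NC 0.830 ± 0.0988 CPM (SD, n = 3 each), a log2 difference of -0.35 that did not pass the test (edgeR, adjusted p = 0.512). Some libraries stood apart from their replicates by gene length. The log2 level of genes over 5000 bases relative to those under 1500 bases deviated by 0.22 in si replicate 3, 0.18 in si_NC replicate 2 and -0.45 in OE_NC replicate 1, while the other 9 libraries lay between -0.17 and 0.099. The remaining markers of fat progenitors and fat cells were mixed. PPARG, the master regulator of fat cell formation, averaged 16.7 CPM and FABP4, a fatty acid carrier, 7.10 CPM, whereas the fat cell hormone ADIPOQ did not exceed 0.163 CPM in any library. CD34 and DLK1, which also mark progenitors in fat, averaged 0.0287 and 0.0689 CPM. Of the 10 genes described here, 8 were at 0.980 RPKM or more in every library, while VCAM1 and DPP4, like CD34 and DLK1, were near 0.

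The order of the levels was read from the deposited RPKM, reads per kilobase of exon and per M reads. CD44, the receptor for the matrix polysaccharide hyaluronan, had the highest level, 125 ± 17.8 RPKM (SD over 12 libraries), above 96.5 percent of the 16300 genes tested. PDGFRA averaged 33.4 ± 5.91 RPKM, ENG 21.9 ± 2.90 RPKM, PDGFRB 18.5 ± 2.95 RPKM and ALCAM 15.5 ± 2.81 RPKM, which lay above 88.8, 84.5, 82.5 and 80.0 percent of tested genes. Below them came THY1 at 8.31 ± 2.64 RPKM, NT5E at 5.17 ± 0.309 RPKM and FAP at 1.61 ± 0.426 RPKM. VCAM1 averaged 0.0612 RPKM and DPP4 0.0562 RPKM, above only 2.77 and 2.31 percent of tested genes. The ranges over all 12 libraries were apart for CD44 above PDGFRA, ALCAM above THY1, NT5E above FAP and FAP above VCAM1. They overlapped for the other 5 neighbouring pairs, although PDGFRA was above ENG in 12 of 12 libraries. ENG was above PDGFRB, PDGFRB above ALCAM and THY1 above NT5E in 10 of 12 libraries each, and VCAM1 above DPP4 in 6.

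**Figure D1:**
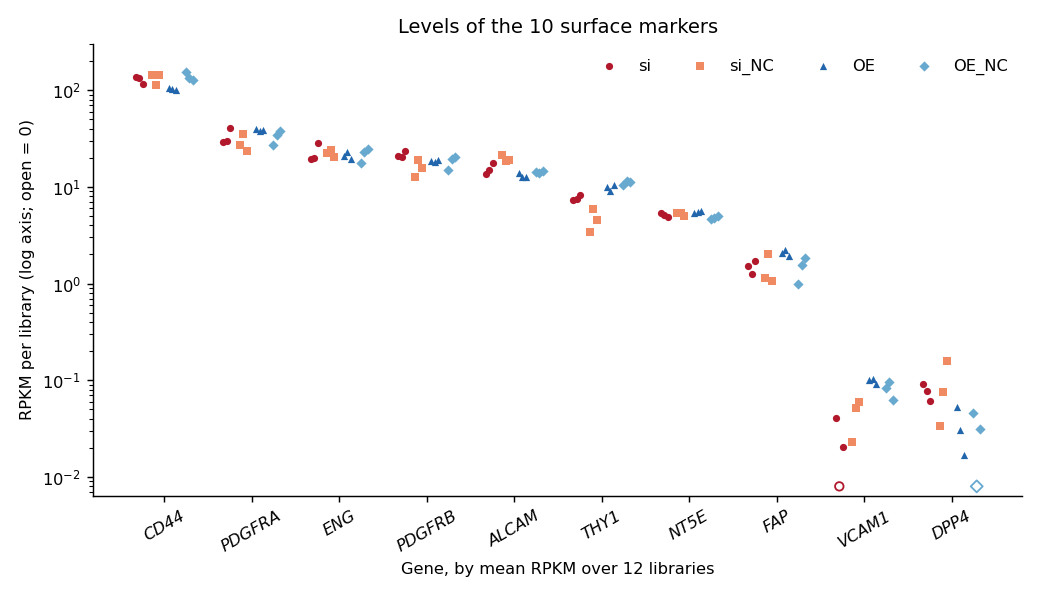
Deposited RPKM of each gene in every library on a log axis, with genes ordered by their mean over 12 libraries and one symbol per group. CD44 lies near 125 RPKM and FAP near 1.61 RPKM, and VCAM1 and DPP4 lie far below the other 8, with 1 library each at 0 drawn as an open symbol.

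Edges of that order depended on the group. In si_NC, THY1 reached 3.42, 5.96 and 4.52 RPKM, a range that overlapped the 5.37, 5.36 and 5.05 RPKM of NT5E, whereas in si, OE and OE_NC every THY1 library was above every NT5E library. PDGFRB and ALCAM likewise overlapped in si_NC and were apart in the other 3 groups with PDGFRB higher. CD44 alone made up 48.0 to 62.9 percent of the RPKM summed over the 10 genes, and that sum ranged from 207 to 244 RPKM per library. Within groups NT5E varied least, with a log2 SD of 0.057, below which only 3.12 percent of tested genes lay. The median gene had a within-group log2 SD of 0.19, PDGFRA 0.23 and FAP 0.36.

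Changes were tested on raw counts with edgeR's quasi-likelihood F test over 16300 genes and adjusted by Benjamini-Hochberg, and a gene is called at an adjusted p under 0.05. Of the 10 genes, 9 passed the filter on low counts and VCAM1 did not. DPP4 passed it only through libraries of si and si_NC, with up to 18 counts there, against 0 to 7 counts in OE and OE_NC. It is still counted among the 9 in every contrast. With halved counts, a filter of 5 CPM in 3 libraries or only the groups compared, DPP4 was left out and 8 genes were tested. For interference, 2 of the 9 were called, THY1 higher and ALCAM lower in si than in si_NC, where 2.54 percent of all genes were called. The groups did not overlap for these and for PDGFRB, 3 of 9, against 20.8 percent of all genes. For overexpression 0 of the 9 were called by edgeR, where 4.47 percent of all genes were. FAP, NT5E and CD44 had an unadjusted p under 0.05, 3 of 9, against 22.9 percent of all genes, and CD44 was called by DESeq2 and by limma on log2 RPKM. The median log2 change of the 9 was -0.060 for interference, beside 0.025 over all genes, and 0.077 for overexpression, beside -0.0046 over all genes.

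THY1 is a small glycoprotein held in the outer membrane by a lipid anchor, which binds integrins on neighbouring cells. It stood at 13.9, 14.1 and 15.7 CPM in si, against 6.93, 11.7 and 9.05 CPM in si_NC. The groups did not overlap: all 3 si libraries were above the highest si_NC library, and the si_NC libraries were spread more widely. THY1 rose by 0.66 ± 0.14 log2 (SE; 95 percent interval 0.36 to 0.96), a fold of 1.58 (edgeR, adjusted p = 0.0263). In OE it stood at 19.5, 17.7 and 20.5 CPM, against 19.8, 21.3 and 21.1 CPM in OE_NC. These groups overlapped, with a log2 difference of -0.11 (95 percent interval -0.40 to 0.18; edgeR, adjusted p = 0.668). The difference of the changes, overexpression minus interference, was itself called at -0.77 ± 0.20 log2 (edgeR, adjusted p = 0.0267). It was the only 1 of the 9 called in that test, where 8.41 percent of all genes were.

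Both THY1 calls were lost in some fits with fewer libraries. Leaving out si replicate 1, si replicate 2, si_NC replicate 1 or si_NC replicate 3 gave adjusted p between 0.0792 and 0.107 for interference, with log2 changes of 0.49 to 0.68. In that order, these fits called 73, 69, 56 and 135 genes in all, beside 414 in the main fit. Fitting only si and si_NC gave THY1 an adjusted p of 0.151 and called 8 genes in all. The interference call held in 11 of 12 alternative settings. The difference of the changes was no longer called in 6 of 12 fits without 1 library, nor with the length trend removed (-0.62, adjusted p = 0.0573).

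ALCAM is an immunoglobulin-type adhesion molecule that binds itself and CD6 on T cells. Its level was 65.6, 70.9 and 84.6 CPM in si, against 110, 92.5 and 97.4 CPM in si_NC. Every si library was below every si_NC library, with si replicate 3 closest to them. ALCAM fell by 0.44 ± 0.09 log2 (95 percent interval -0.64 to -0.24), to 0.737 of its si_NC level (edgeR, adjusted p = 0.0253). In OE it had 68.5, 63.7 and 62.2 CPM, against 69.3, 66.4 and 68.9 CPM in OE_NC. OE replicate 1 lay within the OE_NC range, so the groups overlapped, and the log2 difference was -0.07 (95 percent interval -0.27 to 0.13; edgeR, adjusted p = 0.681). The 2 changes differed by 0.37 (95 percent interval 0.08 to 0.65), which did not pass the adjustment (adjusted p = 0.101). The interference call was lost without si replicate 1, si replicate 2, si_NC replicate 1 or si_NC replicate 3 (adjusted p 0.0627 to 0.135), with only the 2 groups fitted (0.146) and with limma on log2 RPKM (0.0637 and 0.0639). CD6, the partner of ALCAM, averaged 0.035 CPM.

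**Figure D2:**
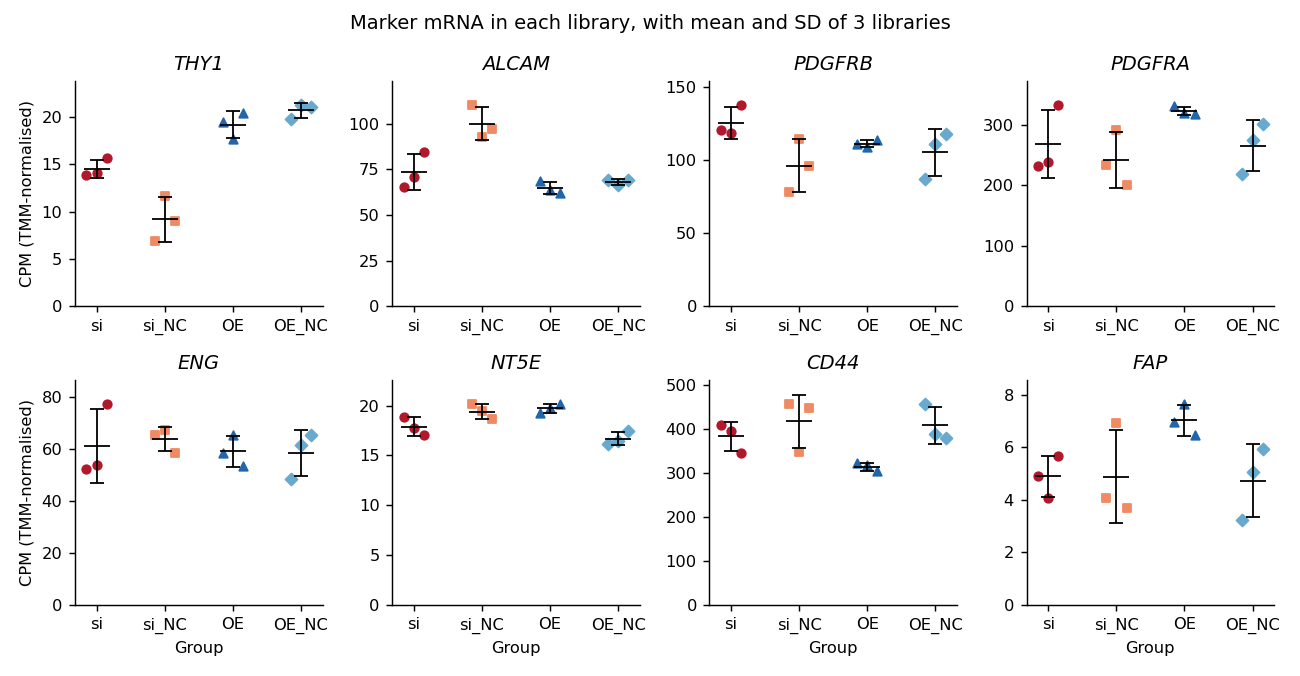
TMM-normalised CPM of 8 genes in each library, with the mean and SD of 3 libraries per group; axes start at 0. THY1 is lowest and ALCAM highest in si_NC, and CD44 in OE lies below the OE_NC libraries.

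Marker genes of other cell types were read beside these results. Over these lists and that of fat cells, 1 of 36 tested genes was called for interference, 2.78 percent, beside 2.54 percent of all genes. Of the 8 listed genes of smooth muscle and pericytes 6 were tested, and CSPG4, a proteoglycan of pericytes, was called in si, at 43.2 ± 3.67 CPM against 30.6 ± 5.05 CPM in si_NC (log2 0.50 ± 0.11, edgeR, adjusted p = 0.03). Of 6 fits without 1 library it was called in 1, without si_NC replicate 2 (adjusted p up to 0.122 in the others). The smooth muscle and pericyte list summed to 3012 to 3654 CPM in si and 3244 to 3909 CPM in si_NC. Most of that sum was ACTA2 and CNN1, smooth muscle genes that averaged 3321 and 355 CPM over the 12 libraries. Among its other genes NOTCH3 and ABCC9 averaged 6.18 and 1.40 CPM, and the pericyte genes RGS5 and KCNJ8 0.0059 and 0.033 CPM. The 6 epithelial genes summed to 3.33 to 4.46 CPM in si, against 1.94 to 2.50 CPM in si_NC. KRT19 averaged 1.90 CPM and EPCAM 0.0333 CPM. Blood cell genes summed to 9.71 to 10.9 CPM in si and 9.45 to 11.6 CPM in si_NC, with CD68 at 4.40 CPM and PTPRC at 0.0285 CPM. Endothelial genes summed to 55.9 to 78.5 CPM in si and 53.8 to 77.5 CPM in si_NC, nearly all of it FLT1, with PECAM1 at 0.365 CPM. Skeletal muscle genes summed to 478 to 632 CPM in si and 478 to 573 CPM in si_NC, and Schwann cell genes to 2.38 to 3.93 CPM in si and 2.26 to 3.59 CPM in si_NC. Of 13 genes of fat cell formation and mature fat cells, 11 were tested and 0 were called by edgeR in either experiment. Among the 11, 2 had an unadjusted p under 0.05 for interference and 2 for overexpression, against 18.9 and 22.9 percent of all genes. The 13 genes summed to 68.5 to 76.5 CPM in si and 65.3 to 86.9 CPM in si_NC. The transcription factors EBF1 and PPARG were the highest, at 20.5 and 16.7 CPM over all libraries, and the mature fat cell gene PLIN1 averaged 1.41 CPM. The part of these genes in the THY1 and ALCAM results was not tested.

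PDGFRB, the receptor for PDGF-B and PDGF-D that is high on pericytes and many progenitors, had 120, 118 and 137 CPM in si, against 78.3, 114 and 95.6 CPM in si_NC. Its groups did not overlap, with si_NC replicate 2 close below the si libraries. The log2 difference was 0.38 ± 0.13 (95 percent interval 0.11 to 0.65), which did not pass the adjustment (edgeR, adjusted p = 0.117). Leaving out 1 library gave 0.25 to 0.52. The lowest value came without si_NC replicate 1 (adjusted p = 0.38), and PDGFRB was called only without si_NC replicate 2, 1 of 6 such fits (adjusted p = 0.0216). PDGFRB in OE was 111, 109 and 114 CPM, inside the 87.3, 111 and 118 CPM of OE_NC, with a log2 difference of 0.08 (95 percent interval -0.19 to 0.35).

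PDGFRA, the receptor used most often to trace fat progenitors, gave 331, 320 and 318 CPM in OE, against 219, 276 and 302 CPM in OE_NC. The 3 OE libraries were above every OE_NC library and lay closer together. The log2 difference was 0.28 ± 0.15 (95 percent interval -0.04 to 0.60; edgeR, adjusted p = 0.276), and without OE_NC replicate 1 it was 0.15. In si PDGFRA had 233, 238 and 333 CPM, against 234, 291 and 201 CPM in si_NC. Those groups overlapped, with si replicate 3 and si_NC replicate 2 the high libraries of their groups, and the log2 difference of 0.15 had an interval of -0.17 to 0.46. The ratio of PDGFRA to PDGFRB, in RPKM, was 2.01 to 2.15 in OE and 1.79 to 1.85 in OE_NC, and 1.39 to 1.74 in si against 1.51 to 2.15 in si_NC.

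Around the PDGF receptors, 10 ligands and adaptors were listed and all were tested. For interference 0 were called higher and 1 lower, where 2.54 percent of all genes were called. The median log2 change was 0.062 beside 0.025 over all genes. The gene called was PTPN11, the phosphatase that binds activated receptors, at 289 ± 16 CPM in si against 346 ± 14.7 CPM in si_NC (log2 -0.26 ± 0.07, edgeR, adjusted p = 0.047). It was called in 7 of 12 alternative settings and in 2 of 6 fits without 1 library (adjusted p up to 0.189). For overexpression 0 of the 10 were called by edgeR and 3 had an unadjusted p under 0.05, against 4.47 and 22.9 percent of all genes. The median was 0.17 beside -0.0046 over all genes. The most abundant of the 10 per length, PTPN11 and the adaptor SHC1, differed by 0.14 (adjusted p = 0.232) and 0.0045 (adjusted p = 0.987) on the log2 scale.

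CD44 stood at 322, 318 and 304 CPM in OE, against 458, 389 and 380 CPM in OE_NC. All OE libraries were below all OE_NC libraries, and OE_NC replicate 1, the library with the lowest long-gene level, was the highest. The log2 difference was -0.38 ± 0.10 (95 percent interval -0.60 to -0.16), a ratio of 0.770, and missed the threshold by a narrow margin (edgeR, adjusted p = 0.0521). DESeq2 gave an adjusted p of 0.0159, the fit of OE and OE_NC alone 0.0127, and 9 of 11 alternative settings called it. With the length trend removed it did not pass (adjusted p = 0.0597), and without OE_NC replicate 1 the change was -0.30 (adjusted p = 0.182). CD44 had 411, 395 and 346 CPM in si, against 458, 349 and 448 CPM in si_NC. These ranges overlapped, with a log2 difference of -0.12 (95 percent interval -0.34 to 0.10), and the difference between the overexpression and interference changes was -0.25 (95 percent interval -0.56 to 0.06; edgeR, adjusted p = 0.314). CD44 and PDGFRA thus lay on opposite sides in OE. Their RPKM ratio was 2.63, 2.69 and 2.58 in OE, against 5.66, 3.81 and 3.41 in OE_NC, and it was 4.78, 4.49 and 2.82 in si, against 5.29, 3.24 and 6.04 in si_NC.

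Other marker genes also moved with overexpression. Over the lists of other cell types and fat cells, 3 of 36 tested genes were called, 8.33 percent, beside 4.47 percent of all genes. The skeletal muscle list summed to 713 to 743 CPM in OE, against 517 to 589 CPM in OE_NC, without overlap. Its sum is nearly all DES, an intermediate filament gene shared with smooth muscle, which rose by 0.42 ± 0.10 log2 to 716 ± 15.7 CPM in OE, against 536 ± 36.8 CPM in OE_NC (edgeR, adjusted p = 0.0399). ACTA1 fell by 0.68 ± 0.14 log2 (adjusted p = 0.0208), while MYOD1, MYOG and MYF5 averaged 0.0427, 0.00586 and 0.0330 CPM. MYH11, a smooth muscle myosin, rose by 1.01 ± 0.17 log2 (adjusted p = 0.0118). Of 6 fits without 1 library, DES and ACTA1 were called in 1 each, the one without OE_NC replicate 3, and MYH11 in 3. DES was called in 8 of 11 alternative settings. The smooth muscle and pericyte list summed to 3886 to 4144 CPM in OE and 3832 to 4332 CPM in OE_NC. Blood cell genes summed to 8.09 to 10.7 CPM in OE and 9.63 to 10.2 CPM in OE_NC, and endothelial genes, nearly all FLT1, to 59.2 to 65.3 CPM in OE and 64.1 to 84.0 CPM in OE_NC. Genes of fat cell formation and mature fat cells summed to 65.8 to 78.2 CPM in OE and 65.9 to 70.2 CPM in OE_NC. Epithelial genes summed to 3.46 to 4.80 CPM in OE and 3.51 to 4.23 CPM in OE_NC, and Schwann cell genes to 2.46 to 3.25 CPM in OE and 1.99 to 2.48 CPM in OE_NC. The part of these genes in the CD44 and PDGFRA values was not tested.

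The hyaluronan list holds the synthases, hyaluronidases and binding proteins around CD44 and the proteins that link it to actin. Of its 15 genes, 14 were tested. For interference 1 was called higher and 0 lower, where 2.54 percent of all genes were called. It was TNFAIP6, a secreted hyaluronan-binding protein, at 11.9 ± 1.39 CPM in si against 8.50 ± 1.16 CPM in si_NC (log2 0.48 ± 0.12, edgeR, adjusted p = 0.0466). TNFAIP6 was called in 9 of 12 alternative settings and in 1 of 6 fits without 1 library (adjusted p up to 0.203). Of the 14 genes, 7 had an unadjusted edgeR p under 0.05 for interference, against 18.9 percent of all genes. Their median log2 change was 0.0017 beside 0.025 over all genes. The list was chosen with earlier results of these data known, so these counts are descriptions only. For overexpression 0 of 14 were called by edgeR and 4 had an unadjusted p under 0.05, against 4.47 and 22.9 percent of all genes. The median log2 change was 0.039 beside -0.0046 over all genes. EZR and MSN, the most abundant per length and both linkers of CD44 to actin, averaged 787 and 335 RPKM. Their log2 differences for overexpression were 0.11 (adjusted p = 0.272) and 0.20 (adjusted p = 0.0655).

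NT5E, the enzyme that makes adenosine from AMP outside the cell, had 19.2, 19.7 and 20.2 CPM in OE, against 16.2, 16.4 and 17.4 CPM in OE_NC. No OE library overlapped the OE_NC range. The log2 difference was 0.24 ± 0.08 (95 percent interval 0.07 to 0.41), which did not pass the adjustment (edgeR, adjusted p = 0.0898). In si it had 18.9, 17.7 and 17.0 CPM, against 20.1, 19.4 and 18.7 CPM in si_NC, with si replicate 1 inside the si_NC range and a log2 difference of -0.12 (95 percent interval -0.29 to 0.05). The difference between the changes was 0.36 (95 percent interval 0.12 to 0.60; edgeR, adjusted p = 0.0623), and it was called by DESeq2 (adjusted p = 0.0244) and with the length trend removed (adjusted p = 0.0451). PDGFRA, NT5E, CD44 and FAP were the 4 of 9 genes without overlap between OE and OE_NC, against 33.3 percent of all genes. Of the 13 other genes of extracellular adenosine, 7 were tested, and 0 were called by edgeR for interference or overexpression. Among the 7, 1 and 1 had an unadjusted p under 0.05, against 18.9 and 22.9 percent of all genes. The most abundant of these per length were ADK, adenosine kinase, at 17.1 RPKM and the transporter SLC29A1 at 13.8 RPKM.

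ENG, a co-receptor for TGF-beta family ligands, was called in neither experiment. It had 52.2, 53.6 and 77.3 CPM in si, against 65.4, 67.1 and 58.4 CPM in si_NC. In OE it had 58.4, 65.1 and 53.4 CPM, against 48.3, 61.5 and 65.3 CPM in OE_NC. Both pairs of groups overlapped, and si replicate 3 was the highest of the 12 libraries. Log2 differences were -0.060 for interference (95 percent interval -0.36 to 0.24) and 0.016 for overexpression (95 percent interval -0.29 to 0.32), and their signs turned with some settings. Of 12 receptors and SMADs that signal with ENG, all were tested and 0 were called in either experiment, where 3 and 2 had an unadjusted p under 0.05, against 18.9 and 22.9 percent of all genes. The most abundant per length, TGFBR3 and BMPR2, differed by -0.14 (adjusted p = 0.74) and 0.00092 (adjusted p = 0.998) for interference and by 0.30 (adjusted p = 0.384) and 0.10 (adjusted p = 0.578) for overexpression.

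**Figure D3:**
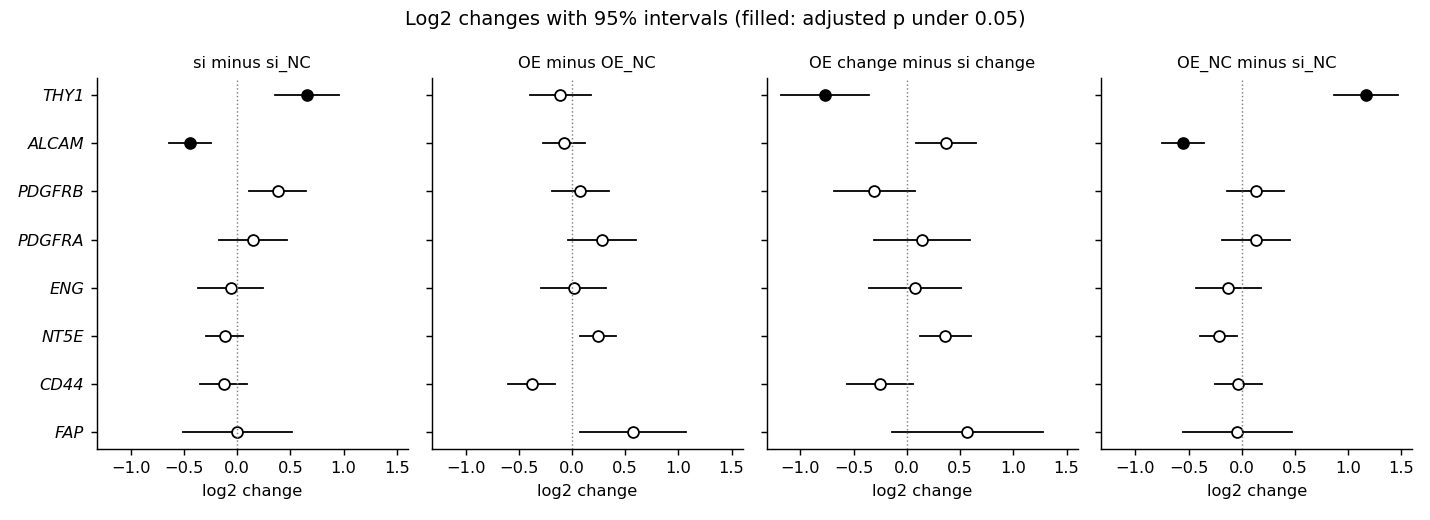
Log2 changes of 8 genes with 95 percent intervals in 4 contrasts, filled where the edgeR adjusted p was under 0.05. THY1 is filled in 3 panels and ALCAM in 2, none is filled for OE minus OE_NC, and the interval of FAP is the widest.

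FAP, a membrane serine peptidase of activated fibroblasts, had 6.96, 7.66 and 6.47 CPM in OE, against 3.22, 5.05 and 5.92 CPM in OE_NC. Each OE library was above each OE_NC library, and OE_NC replicate 1 was the lowest. The log2 difference of 0.57 ± 0.23 (95 percent interval 0.07 to 1.07) did not pass the adjustment (edgeR, adjusted p = 0.159), and without OE_NC replicate 1 it was 0.35. In si FAP had 4.92, 4.09 and 5.67 CPM, against 4.06, 6.93 and 3.67 CPM in si_NC, overlapping groups with a log2 difference of 0.0022 (95 percent interval -0.51 to 0.51).

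DPP4, a peptidase related to FAP that lies near it on chromosome 2, was read by only 12, 12 and 8 counts in si, against 4, 8 and 18 counts in si_NC. In OE it had 7, 4 and 2 counts, against 6, 0 and 4 counts in OE_NC. The groups overlapped in both experiments, and intervals of the log2 difference ran from -1.66 to 1.06 for interference and from -1.36 to 2.29 for overexpression, so changes of 2-fold were not detectable at this depth. A library with 0 counts allows up to 3 counts, for counting error only and if each molecule gives 1 count. Even values made up 66.2 to 69.3 percent of nonzero counts, so that may not hold and the bound may be higher. DPP4 shares 83 of its 3643 exon bases with LOC112442563 on the opposite strand, and as the strand used in counting is not given, reads there cannot be assigned. FAP spans positions 34192288 to 34271389 and DPP4 34382851 to 34467587 of that chromosome, in the coordinates of the count table. Of the 10 prolyl peptidases, partners and substrates listed with the pair, 7 were tested and 0 were called in either experiment. Among the 7, 0 had an unadjusted p under 0.05 for interference and 2 for overexpression, against 18.9 and 22.9 percent of all genes. CAV1 and DPP9, the most abundant per length, differed by 0.13 (adjusted p = 0.426) and 0.016 (adjusted p = 0.953) for interference and by -0.12 (adjusted p = 0.41) and 0.040 (adjusted p = 0.851) for overexpression.

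VCAM1, the integrin ligand that inflamed endothelium and stroma display, was too low to test. Its counts were 4, 0 and 2 in si and 2, 4 and 5 in si_NC. In OE they were 10, 10 and 8, against 8, 10 and 6 in OE_NC. Summed over 3 libraries they came to 6 in si, 11 in si_NC, 28 in OE and 24 in OE_NC, and the group ranges overlapped in both experiments. A list of 10 genes held NF-kB, IRF1 and genes commonly induced with VCAM1, of which 9 were tested. It was chosen with earlier results of these data known, so its counts and medians are descriptions only. For overexpression 2 of the 9 were called, both higher, against 4.47 percent of all genes. For interference 0 were called by edgeR and 3 had an unadjusted p under 0.05, against 2.54 and 18.9 percent of all genes. IRF1, an interferon-induced transcription factor, rose by 1.05 ± 0.12 log2 to 26.9 ± 1.96 CPM in OE, against 13.0 ± 0.823 CPM in OE_NC (edgeR, adjusted p = 0.00081). BIRC3, an inhibitor of cell death induced by NF-kB, rose by 0.73 ± 0.07 log2 to 39.6 ± 1.56 CPM in OE, against 23.9 ± 0.902 CPM in OE_NC (adjusted p = 0.000418). Both calls held without each of the 6 libraries of OE and OE_NC in turn. The list's median log2 change was 0.24 for overexpression, beside -0.0046 over all genes, and -0.038 for interference, beside 0.025.

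Integrins and other adhesion molecules around THY1, VCAM1 and ALCAM formed a list of 15 genes, of which 12 were tested. For overexpression 2 were called higher and 0 lower, where 4.47 percent of all genes were called. The 2 were ITGAV and ITGB3, the subunits of an integrin that binds THY1. ITGAV rose by 0.65 ± 0.12 log2 to 212 ± 4.41 CPM in OE, against 135 ± 21.0 CPM in OE_NC (edgeR, adjusted p = 0.0161). ITGB3 rose by 0.42 ± 0.10 log2 to 472 ± 5.42 CPM in OE, against 354 ± 42.1 CPM in OE_NC (adjusted p = 0.0401). Of 6 fits without 1 library, ITGAV was called in 2 (adjusted p up to 0.0841) and ITGB3 in 1 (up to 0.178), and ITGB3 was called in 8 of 11 alternative settings. For interference 1 was called higher, where 2.54 percent of all genes were called. It was the neural adhesion molecule NCAM1, at 160 ± 7.64 CPM in si against 119 ± 12.7 CPM in si_NC (log2 0.43 ± 0.08, edgeR, adjusted p = 0.0163). That call was kept in 4 of 6 fits without 1 library. Of the 12 tested genes, 5 had an unadjusted edgeR p under 0.05 for overexpression and 4 for interference, against 22.9 and 18.9 percent of all genes. This list too was chosen with earlier results known, so these counts are descriptions only. Of 19 other surface markers of progenitors, 16 were tested and 0 were called in either experiment. Among the 16, 4 had an unadjusted p under 0.05 for interference and 3 for overexpression, against 18.9 and 22.9 percent of all genes. ITGB1 and CD248, the most abundant of these per length at 437 and 96.6 RPKM, differed by 0.19 (adjusted p = 0.0642) and 0.051 (adjusted p = 0.905) for overexpression.

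The control groups were also compared, OE_NC minus si_NC, although reagent and experiment cannot be told apart there and each control is shared with a contrast above. THY1 was 1.17 ± 0.14 log2 higher in OE_NC, a fold of 2.25 (edgeR, adjusted p = 0.000151), and ALCAM 0.55 ± 0.09 log2 lower, a ratio of 0.682 (adjusted p = 0.00143). These 2 of 9 were called, where 19.7 percent of all genes were, and both stayed called in all 12 alternative settings and without each of the 6 libraries in turn. Groups did not overlap for THY1, NT5E and ALCAM, 3 of 9, against 35.8 percent of all genes. NT5E was at -0.22 (adjusted p = 0.0684), and the other 6 had adjusted p between 0.0938 and 0.924. The si_NC libraries, at 6.93 to 11.7 CPM, were the lowest 3 of 12 for THY1, for which the other 9 had 13.9 to 21.3 CPM. They were the highest 3 of 12 for ALCAM, at 92.5 to 110 CPM, where the other 9 had 62.2 to 84.6 CPM.

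Of the 82 distinct genes tested in the lists around the markers, 18 were called between the controls, a share near the 19.7 percent of all genes. Called for interference were 3 of the 82, 3.66 percent beside 2.54 percent of all genes. Called for overexpression were 4, 4.88 percent beside 4.47 percent of all genes. In the hyaluronan list, of 14 tested, 1 was called higher and 5 lower in OE_NC than in si_NC. CEMIP2 and CEMIP, which break down hyaluronan, were at -0.93 ± 0.07 and -0.89 ± 0.20 log2 (edgeR, adjusted p = 6.55e-06 and 0.00654), HAPLN3, a hyaluronan link protein, at 0.53 ± 0.08 (adjusted p = 0.000836) and the actin linker RDX at -0.26 ± 0.06 (adjusted p = 0.00957). In the PDGF list, of 10 tested, 1 was higher, the ligand PDGFA (0.68 ± 0.18, adjusted p = 0.0144), and 3 lower, PLCG1, PTPN11 and PIK3R1, at -0.43, -0.23 and -0.29. NCAM1 was higher (0.53, adjusted p = 0.000854) and ICAM1 lower (-0.44, adjusted p = 0.0311). DPP8 and the chemokine CXCL12, a DPP4 substrate, were lower at -0.46 (adjusted p = 0.00266) and -0.76 (adjusted p = 0.0074). Other genes called were SLC29A1, TNFAIP3, IRF1, CD9 and ZNF423, all higher at 0.38 to 0.97, and PPARG, lower at -0.29 (adjusted p = 0.0411). Among marker genes of other cell types, ACTA1 was higher at 0.76 (adjusted p = 0.00216), as was the epithelial factor GRHL2 (adjusted p = 0.0179). GRHL2 was low, at 1.01 ± 0.110 CPM in OE_NC against 0.459 ± 0.194 CPM in si_NC. It shares 1671 of its 11327 exon bases with NCALD on the opposite strand, and as the counting strand is not given, reads there cannot be assigned. Leaving out each of the 6 control libraries in turn kept ICAM1 called in 0 fits, PIK3R1, ZNF423 and PPARG in 1 each, PTPN11 and CD9 in 2 each, PLCG1 in 3, GRHL2 in 4 and PDGFA in 5, and PIK3R1 and PPARG were called in 5 of 12 alternative settings. Of the ENG list 0 of 12 were called and 3 had an unadjusted p under 0.05, against 34.1 percent of all genes.

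Deviations of single libraries from their group mean were shared by several of the genes. PDGFRA, PDGFRB and ENG deviated by -0.27, -0.26 and -0.26 log2 in OE_NC replicate 1, and FAP by -0.50, while CD44 deviated by 0.17. In si replicate 3, PDGFRA and ENG deviated by 0.33 and 0.36 and CD44 by -0.15. In si_NC replicate 2, FAP, THY1 and PDGFRA deviated by 0.56, 0.37 and 0.28 and CD44 by -0.25. These 3 libraries are those that stood apart by gene length, where OE_NC replicate 1 was low and the other 2 were high. PDGFRA and PDGFRB have 8217 and 5914 exon bases. FAP, CD44, ENG and THY1 have 3339, 3037, 2752 and 1924. The part of the length trend in the deviations was not tested. Without si replicate 3 and si_NC replicate 2 together, THY1 changed by 0.80 (edgeR, adjusted p = 0.00316), ALCAM by -0.61 (adjusted p = 0.00178) and PDGFRB by 0.45 (adjusted p = 0.0309) for interference. In that fit 3 of 9 genes were called, against 6.7 percent of all genes. Both libraries left out had stood apart in these data, and si_NC replicate 2 was the highest si_NC library for THY1 and PDGFRB. Leaving it out raises both changes, so the calls of that fit are a description only.

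**Figure D4:**
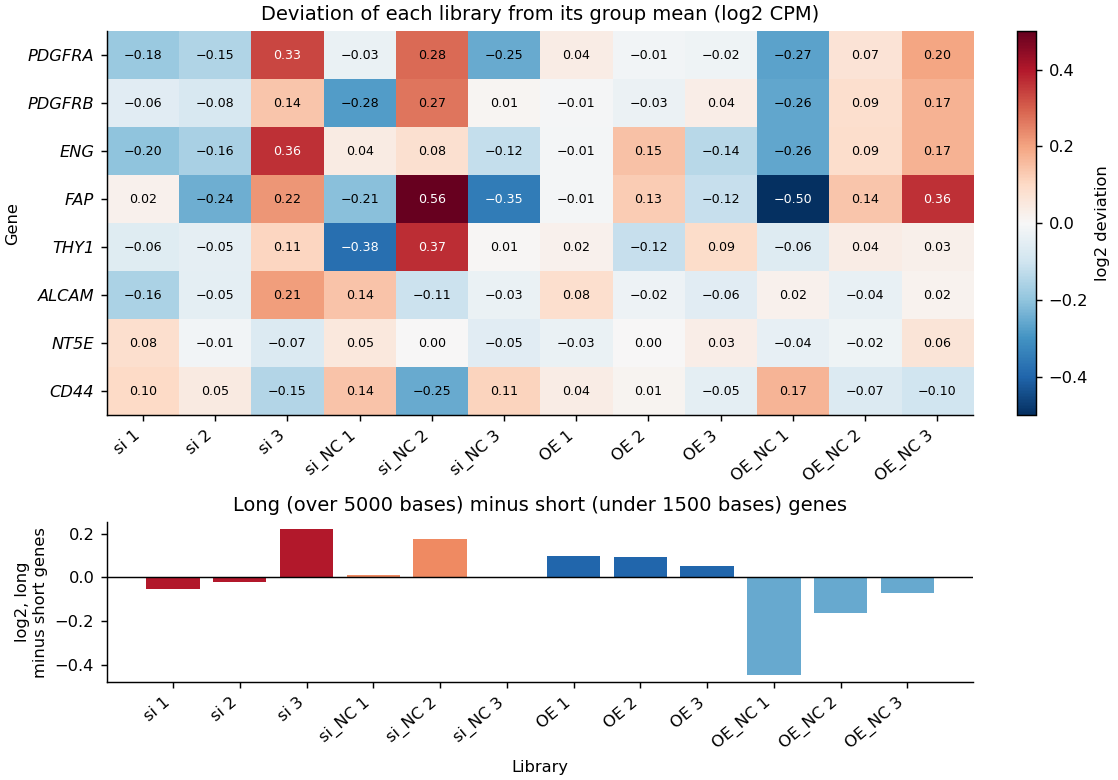
Upper panel, log2 CPM of 8 genes in each library as the deviation from its group mean; lower panel, the log2 level of genes over 5000 bases minus that of genes under 1500 bases in the same libraries. PDGFRA, ENG and FAP are high in si replicate 3 and low in OE_NC replicate 1, CD44 has the opposite sign there, and NT5E deviates by -0.070 to 0.082.

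The genes whose log2 CPM followed THY1 most closely over the 12 libraries, among 8833 genes with a symbol and at least 5 CPM, were CRIP1, a small LIM-domain protein, TRIB3, a stress-induced pseudokinase, and MYL9, a myosin light chain, with Pearson correlations of 0.97, 0.96 and 0.96. CRIP1 averaged 17.2 CPM in si and 10.9 CPM in si_NC, and 18.7 CPM in OE and 22.7 CPM in OE_NC. Those closest to ALCAM were MPZL1, PRKAR2B and CCDC50, with correlations of 0.99, 0.97 and 0.96. PRKAR2B, a regulatory subunit of protein kinase A, averaged 42.9 CPM in si and 68.3 CPM in si_NC, and 34.1 CPM in OE and 35.7 CPM in OE_NC. The 12 points share 4 groups, their library scaling and the search over all genes, so these correlations are descriptions only.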

How the data were processed

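Stranded libraries were made from polyadenylated RNA, per the labels. The authors deposited 2 tables, raw counts per gene and RPKM. Dividing the deposited counts by exon length and library sum gave the deposited RPKM to within 6.6e-14 of its value. Tools named in the submitters' processing notes are fastp 0.23.0, featureCounts and Subread 1.5.1. Aligner, genome build, counting strand and multi-mapped reads: not given in the sources used here. Coordinates are those of the count table, and chromosome numbers come from a RefSeq gene table of assembly ARS-UCD2.0, matched by symbol for all 10 genes. Even values made up 66.2 to 69.3 percent of the nonzero counts. Entries without a gene name (2, with 0.0868 to 0.116 percent of counts) stayed out. No pair of replicates agreed within sampling noise.

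Groups come from sample titles. The title of si_NC replicate 2 reads s_NC in place of si_NC. It was placed in si_NC by inference, as the only control of that number whose source is not the plasmid vector. Tests on counts used R 4.3.3 and edgeR 4.0.16 with TMM scaling, filterByExpr (minimum count 10, minimum total 15, 16300 genes kept) and quasi-likelihood F tests. All 12 libraries entered 1 model with a mean per group. Adjustment was by Benjamini-Hochberg over all tested genes, with a threshold of 0.05. Standard errors are the log2 change over the root of F. The steps were also tested on simulated data.

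The members and gene lists were chosen with earlier results of these data known. The genes named are the 10 members in each contrast, up to 4 called genes per list and contrast (otherwise the 2 most abundant by RPKM), the 2 highest marker genes of other cell types, the 3 genes most correlated with a called member, and HGFAC. Some genes of that rule are given only as counts or ranges, and marker genes near 0 were added after their values were seen. Settings varied were the scaling (size factors of DESeq2, or library totals), the tool (DESeq2 1.42.0, or limma 3.58.1 on log2 RPKM with 1 or 0.1 added), the filter (none, or 5 CPM in 3 libraries), the groups fitted, a block for replicate number, halved counts, and the libraries left out, singly or si replicate 3 with si_NC replicate 2. An offset for the trend on gene length was chosen after seeing the data.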

Additional observations from a re-analysis of the deposited data

Results flagged for a closer look

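For HGFAC and 8 other genes of the lists used here, the overexpression change and the interference change differed by a test of the difference itself (edgeR, adjusted p under 0.05), given here as overexpression minus interference on the log2 scale. For HGFAC, the gene on the plasmid, the difference was 9.02. Among the surface markers this was THY1, at -0.77, with 0.66 for interference and -0.11 for overexpression. In the lists around them it was BIRC3 at 0.80, IRF1 at 0.82, MSN at 0.39, PTPN11 at 0.40 and HAPLN3 at -0.57. Among marker genes of muscle and pericytes, ACTA1 differed by -1.22 and CSPG4 by -0.68. Of these, HGFAC, THY1, HAPLN3, IRF1, PTPN11 and ACTA1 also differed between OE_NC and si_NC, the control groups of the contrasts. With the length trend removed the THY1 difference was -0.62 and was no longer called (adjusted p = 0.0573).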

How the results depend on the processing

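Main counts of markers called were 2 for interference, 0 for overexpression, 1 for the difference of the changes and 2 for the controls. For interference 0 were called with only the groups compared, 3 with no filter (PDGFRB added) and 1 with limma on log2 RPKM with either addend. For overexpression 1, CD44, was called with library totals, the Wald test of DESeq2, the filter of 5 CPM, halved counts, limma with either addend, the replicate block and the fit of its own groups, and 3 with no filter (FAP, PDGFRA and CD44). For the difference, 2 were called with the Wald test of DESeq2 (NT5E added) and without si replicate 3 and si_NC replicate 2 together (ALCAM added), and with the length trend removed the 1 called was NT5E, not THY1. For the controls, 3 were called with that Wald test and with the length trend removed (NT5E added). Leaving out 1 library gave 0 to 3, 0 to 1, 0 to 2 and 2 to 2 calls in the order above. Same-numbered libraries did not deviate together (correlations -0.26 to 0.28), and 0 of 6 libraries of si and si_NC and 2 of 6 of OE and OE_NC correlated best with their own number, so the numbers were not taken to pair the samples. The block moved genes called for interference to 396, beside 414, and for overexpression to 803, beside 728.

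Signs turned for differences near 0. ENG became 0.017 for interference with library totals. For overexpression it became -0.042 with library totals, -0.016 with the 5 CPM filter, -0.032 and -0.033 with limma at 1 and 0.1, and -0.0015 with halved counts. For the difference it became -0.059 with library totals and -0.030 and -0.031 with limma. CD44 between controls became 0.059 with library totals, 0.022 with the 5 CPM filter and 0.062 with limma at either addend (0.0617 and 0.0621). FAP for interference became -0.013 with the size factors and with the Wald test of DESeq2 (-0.0128 and -0.0127), -0.019 with no filter and -0.032 with the length trend removed. FAP between controls became 0.046, 0.012, 0.031 and 0.053 with library totals, the 5 CPM filter and limma at 1 and 0.1, and 0.29 without si replicate 3 and si_NC replicate 2. Leaving out 1 library gave PDGFRA -0.044 to 0.29 for interference and -0.019 to 0.31 for the difference, and PDGFRB -0.054 to 0.15 for overexpression. It gave ENG -0.27 to 0.033 for interference, -0.12 to 0.086 for overexpression and -0.057 to 0.27 for the difference. CD44 between controls ranged from -0.15 to 0.033, FAP from -0.18 to 0.33 for interference and -0.23 to 0.29 between controls, and DPP4 from -0.69 to 0.41 for interference and -0.14 to 1.16 for overexpression. The cause was not tested.

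Genes called ranged from 8 to 1208 over the alternatives for interference (56 to 1083 without 1 library), 523 to 1679 for overexpression (19 to 758), 1209 to 2305 for the difference (588 to 2152) and 2413 to 3928 for the controls (1882 to 2833), beside 414, 728, 1371 and 3215. Library totals moved the median log2 change of all genes to 0.10 for interference, -0.16 for the difference and 0.11 for the controls, beside 0.02, -0.02 and 0.02, and the share of calls that were higher to 73.8, 19.6, 17.3 and 70.9 percent, beside 36.2, 49.7, 51.1 and 48.1 percent, in the order interference, overexpression, difference, controls. THY1 and ALCAM kept the sign of their interference change in every alternative and every fit without 1 library. At 0 to 18 counts per library, VCAM1 and DPP4 limit what could be seen.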
